A study of Rattus norvegicus with 34 samples.

Results

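Expression of 9 interferon-responsive genes, Irf9, Stat2, Irf7, Irf1, Isg15, Ifi27, Oas1a, Mx2 and Mx1, was followed in the livers of ageing male rats. The members, and the gene lists used below, were chosen by gene symbol with earlier results of these data known. Shares of all genes stand beside the counts for scale only and do not test enrichment. Each member was represented by the annotated probe set with the highest mean signal in a strain. The members are 9 of 11984 genes with a probe set in Brown Norway rats and of 11943 in F344 rats. The 34 arrays, one for each animal, came from 2 inbred strains, and no group carried a genetic alteration. Brown Norway rats of 4, 12 and 24 months, housed singly, received toluene, an aromatic solvent, at 1 g/kg in corn oil by gavage and were killed after 4 h (3 rats at each age), or were labelled as controls with no treatment named (3 rats at each age). Whether controls received oil is not given, so toluene, oil and gavage cannot be told apart. F344 rats of 6, 11, 18 and 24 months (4 at each age) were not dosed and stayed with their supplier until 1 week before necropsy. All RNA was from whole liver, so fewer cells of a type and less RNA per cell cannot be told apart.

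Interferons are cytokines that cells release after sensing viral or damaged nucleic acid. Type I interferon binds a surface receptor whose kinases, JAK1 and TYK2, phosphorylate STAT2. With IRF9 it forms part of the factor ISGF3, which binds interferon-stimulated response elements (ISRE) in the promoters of its target genes. Type II interferon acts mainly through gamma-activated sites (GAS), and Irf1 is one of its classic targets. In the liver, hepatocytes, Kupffer cells and other immune cells all respond. Among the members, Irf9 and Stat2 encode ISGF3 subunits, Irf7 and Irf1 encode transcription factors that are themselves induced, and the others encode effectors.

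The promoters of the members are shown because both elements can be read in them. Sequences are from RefSeq on the GRCr8 rat assembly, from 250 bases before to 50 after the transcript start that the RefSeq promoter table uses, and 7 of the 9 members matched. Isg15 and Mx2 had no entry in that table. For Oas1a, Irf7 and Irf9 the start used lies inside the annotated gene. The ISRE core was searched as GAAANNGAAA and the GAS as TTCNNNGAA, on both strands. The core was present in 3.77% and the GAS in 8.68% of 27457 promoters of that length. Stretches of the 3 members with a core and of Irf1 follow, 5' to 3' on the strand of the gene, with the matched letters in capitals.
Ifi27, chr6:128355118-128355262 (plus strand): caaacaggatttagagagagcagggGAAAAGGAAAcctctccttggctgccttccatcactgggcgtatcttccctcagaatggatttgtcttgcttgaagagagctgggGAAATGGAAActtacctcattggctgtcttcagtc
Oas1a, chr12:41330242-41330465 (plus strand): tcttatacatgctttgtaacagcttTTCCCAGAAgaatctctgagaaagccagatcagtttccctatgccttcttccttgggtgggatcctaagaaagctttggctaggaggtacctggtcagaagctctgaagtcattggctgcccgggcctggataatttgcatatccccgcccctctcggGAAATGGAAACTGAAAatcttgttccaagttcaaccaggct
Irf7, chr1:205800058-205800117 (minus strand): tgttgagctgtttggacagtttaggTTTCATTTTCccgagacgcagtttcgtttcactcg
Irf1, chr10:38417768-38417826 (plus strand): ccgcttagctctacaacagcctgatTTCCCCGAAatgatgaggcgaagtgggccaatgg
Ifi27 held 2 ISRE cores, and 0.255% of all promoters held at least that many. The 2 cores of Oas1a overlap in one run near its start, with a GAS match further upstream. The core of Irf7 was read on the opposite strand of the gene, and Irf1 held a GAS match with no core. Irf9 held 1 GAS match, and no match of either kind was found in the windows of Stat2 and Mx1. A match describes letters and does not show that a factor binds there.

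Signals are the authors' processed probe set intensities on a linear scale. Array medians lay between 35.6 and 38.3 for the Brown Norway strain but between 44.9 and 47.1 for F344, so levels were not compared between strains. Values under a floor of 32 were set to it before log2 was taken, and 8 of the 9 members in Brown Norway rats and all 9 in F344 rats were bright enough to be tested. The ratio of 3' to 5' GAPDH probe sets, which rises as RNA degrades, reached at most 0.944 among Brown Norway arrays and ranged from 1.31 to 7.33 among F344 arrays, where it was above 2.5 on 2 arrays of 6 months, 2 of 11 months and 1 of 18 months. Each array correlated with the mean of the others in its group at 0.960 or more, and the least similar Brown Norway array (0.960) was replicate 2 of the 4-month controls. Of 7 hepatocyte markers listed, 6 were measured, and their summed signals lay between 37138 and 42132 on every array. Precision is limited by how few arrays each group has. Each array is from a separate animal, so the p-values measure spread between animals. For genes with floored arrays, such as Mx2 and Oas1a in Brown Norway rats, the SE and p-values leave out the spread below the floor.

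**Figure D1:**
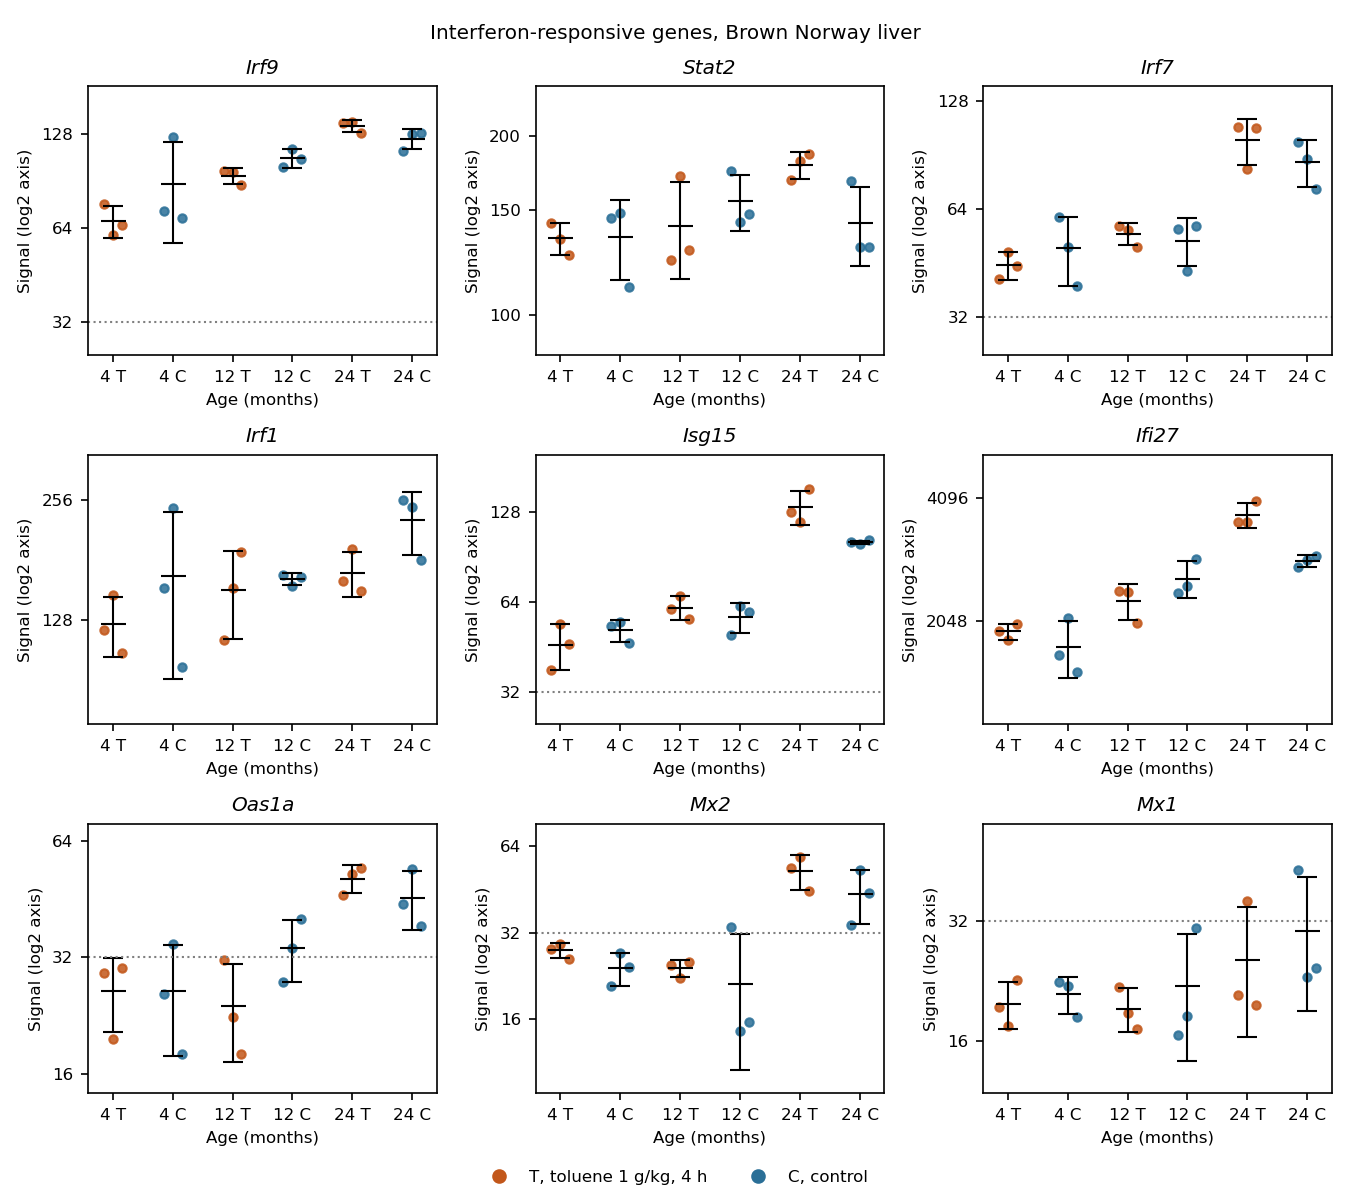
Signal of each member (log2 axis) on each Brown Norway array by age, with toluene (T, orange) left of control (C, blue). Points are animals, black marks the mean and SD of 3, and the dotted line is the floor of 32. Isg15 was 119 to 153 in dosed rats of 24 months, above the 37.9 to 53.9 of dosed rats of 4 months.

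In dosed Brown Norway rats, 6 of the 8 tested members were higher at 24 than at 4 months. The ubiquitin-like Isg15 was 2.91-fold higher, Irf7 2.22-fold, Irf9 2.02-fold and Ifi27 1.93-fold, and the antiviral effectors Mx2 and Oas1a were at least 1.62-fold and 1.59-fold higher. Across all 8586 genes tested with limma, 0.221% were higher at an adjusted p under 0.05. The arrays of 24 months all lay above those of 4 months for 8 of the 8 tested members, against 8.54% of all tested genes. Mx2 was bright enough to test only through the rats of 24 months. It is therefore no independent support in the Brown Norway counts and medians of 24 months, here and below.

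Among the regulators in these dosed rats, Irf9, the DNA-binding subunit of ISGF3, had signals of 129, 138 and 140.1 at 24 months, against 60.6, 65.2 and 76.2 at 4 months. The groups were well apart (log2 fold change 1.02, SE 0.18, adjusted p = 0.0203). The second Irf9 probe set gave 0.74 with an adjusted p of 0.333, so the call rests on the brighter one. Stat2, the ISGF3 subunit that carries the activating domain, had 168, 181 and 187 at 24 months, against 126, 134 and 143 at 4 months. Its groups did not overlap, but the difference did not pass (0.41, adjusted p = 0.717). Irf7, the main amplifier of type I interferon production, had 82.6, 107 and 108 at 24 months, against 40.7, 44.4 and 48.6 at 4 months. All 3 old rats lay well above every young one in the plot of Brown Norway signals (log2 fold change 1.15, SE 0.17, adjusted p = 0.00933). Irf1, a transcription factor induced strongly by type II interferon, had 151, 159.9 and 193 at 24 months, against 105, 120.4 and 148 at 4 months. Its arrays were only just apart (0.44, 95% interval -0.13 to 1.00, adjusted p = 1).

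Among the effectors in these dosed rats, Isg15, whose protein is attached to other proteins like ubiquitin, had signals of 119, 128.5 and 153 at 24 months, against 37.9, 46.3 and 53.9 at 4 months. It showed the largest fold of the members and the smallest adjusted p, with a log2 fold change of 1.54 (SE 0.14, adjusted p = 5.24e-05). Ifi27, a small hydrophobic protein of intracellular membranes, had 3577, 3583 and 4025 at 24 months, against 1843, 1935 and 2018 at 4 months. The 3 animals of each age were close to one another (log2 fold change 0.95, SE 0.12, adjusted p = 0.00223). Oas1a, a synthetase of the oligoadenylates that activate RNase L, had 46.3, 52.6 and 54.3 at 24 months, against 19.7, 29.1 and 29.9 at 4 months, all of the young arrays below the floor. Its log2 fold change of 0.67 (SE 0.12, adjusted p = 0.0287) is therefore a lower bound. Mx2, a dynamin-like antiviral GTPase, had 44.5, 53.6 and 58.7 at 24 months, against 26.0, 28.2 and 29.2 at 4 months, and its bound was 0.70 (SE 0.14, adjusted p = 0.0407). Because Mx2 was tested only through the rats of 24 months, this call is no independent support. The related GTPase Mx1 was below the floor on 16 of 18 Brown Norway arrays and was not tested in this strain. Its signals were 19.7, 20.8 and 35.9 in dosed rats of 24 months, against 17.4, 19.4 and 22.7 in those of 4 months, and 23.1, 24.3 and 42.9 in controls of 24 months, against 18.3, 22.0 and 22.4 in those of 4 months.

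The count of 6 depended on single arrays and on the samples in the fit. It was 2 without replicate 1 or 3 of 4 months or replicate 1 of 24 months, 3 without replicate 2 of 4 months or replicate 2 or 3 of 24 months, and 0 when only the 6 compared arrays were fitted. With each of the 6 arrays left out in turn, Isg15 and Ifi27 kept their calls in 6 of 6 runs. Irf7 kept its call in 2 of them, Mx2 in 1, and Irf9 and Oas1a in 0.

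In controls, 2 of the 8 members were higher at 24 than at 4 months, Isg15 and Ifi27, and the median over the 8 was 0.54, beside 0.82 in dosed rats. Isg15 had signals of 100.5, 102 and 103 at 24 months, against 46.6, 53.0 and 54.7 at 4 months, 1.98-fold higher (log2 fold change 0.99, SE 0.14, adjusted p = 0.00816). Ifi27 had 2779.6, 2886 and 2962 at 24 months, against 1538, 1689 and 2083 at 4 months (1.64-fold, log2 fold change 0.71, SE 0.12, adjusted p = 0.0239). Both genes were apart on every array. Across all genes, 0.175% were higher in this comparison.

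The other control differences did not pass. Irf7 had 72.8, 88.4 and 98.5 in controls of 24 months, against 38.9, 50.03 and 60.7 in those of 4 months (0.81, adjusted p = 0.0639). Oas1a had 38.6, 43.9 and 54.1, against 18.0, 25.8 and 34.7 at 4 months, where 2 of 3 arrays were below the floor (0.46, adjusted p = 0.124). Mx2 had 33.9, 43.9 and 52.6, against 20.8, 24.3 and 27.1, all below the floor (at least 0.42, adjusted p = 0.207). These 3 genes, with Isg15 and Ifi27, make 5 of 8 members whose control groups did not overlap, against 7.14% of all genes. Mx2, tested only through the rats of 24 months, is no independent support in that count. Irf9 had 113, 127.8 and 129 at 24 months, against 68.7, 72.1 and 125 at 4 months, and 1 young rat reached the level of the old ones (0.53, adjusted p = 0.221). Without that rat, replicate 2, Irf9 differed by 0.81 and passed (adjusted p = 0.0143). It was called in 1 of 6 runs with an array left out, and its second probe set gave 0.16. Replicate 2 of the young controls was the highest of its group for Irf1 and Ifi27 as well. Irf1 had 180.1, 246 and 255 at 24 months, against 97.1, 154 and 243 at 4 months (0.55, adjusted p = 0.453), and the difference was 0.21 without replicate 3 and 0.88 without replicate 2 of 4 months. Stat2 had 130.0, 130.1 and 168 at 24 months, against 111, 146 and 148 at 4 months, with full overlap (0.08, 95% interval -0.24 to 0.40, adjusted p = 0.925).

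That young control, replicate 2, also had a summed signal of 416 over 3 neutrophil markers, against 36.2 and 54.9 in the other rats of its group. The part of this in its Irf1, Irf9 and Ifi27 signals was not tested. Of the control calls, 2 became 1 without replicate 1 of 4 months or replicate 1 of 24 months, and 0 without replicate 3 of 4 months. It was also 0 with only the 6 compared arrays in the fit.

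Averaged over dosed and control rats, 24 against 4 months, 6 of the 8 members rose, against 0.524% of all genes. This comparison uses the arrays of both comparisons above, which share none with each other. Isg15 was 2.40-fold higher (log2 fold change 1.26, SE 0.10, adjusted p = 1.36e-05), Irf7 1.97-fold (0.98, adjusted p = 0.00102), Ifi27 1.78-fold (0.83, adjusted p = 0.000146) and Irf9 1.71-fold (0.77, adjusted p = 0.00682). Oas1a (0.56, adjusted p = 0.00494) and Mx2 (0.56, adjusted p = 0.011) also passed, Mx2 being tested only through the rats of 24 months. Irf1 (0.49, adjusted p = 0.312) and Stat2 (0.25, adjusted p = 0.406) did not. The median over the 8 members was 0.67, beside -0.00 over all genes. With its other probe set Irf9 differed by 0.45 and did not pass (adjusted p = 0.21). The count was 6 without any single one of the 12 arrays, and 1 with a floor 4 times as high, which lies above the signals of most members in young rats.

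**Figure D2:**
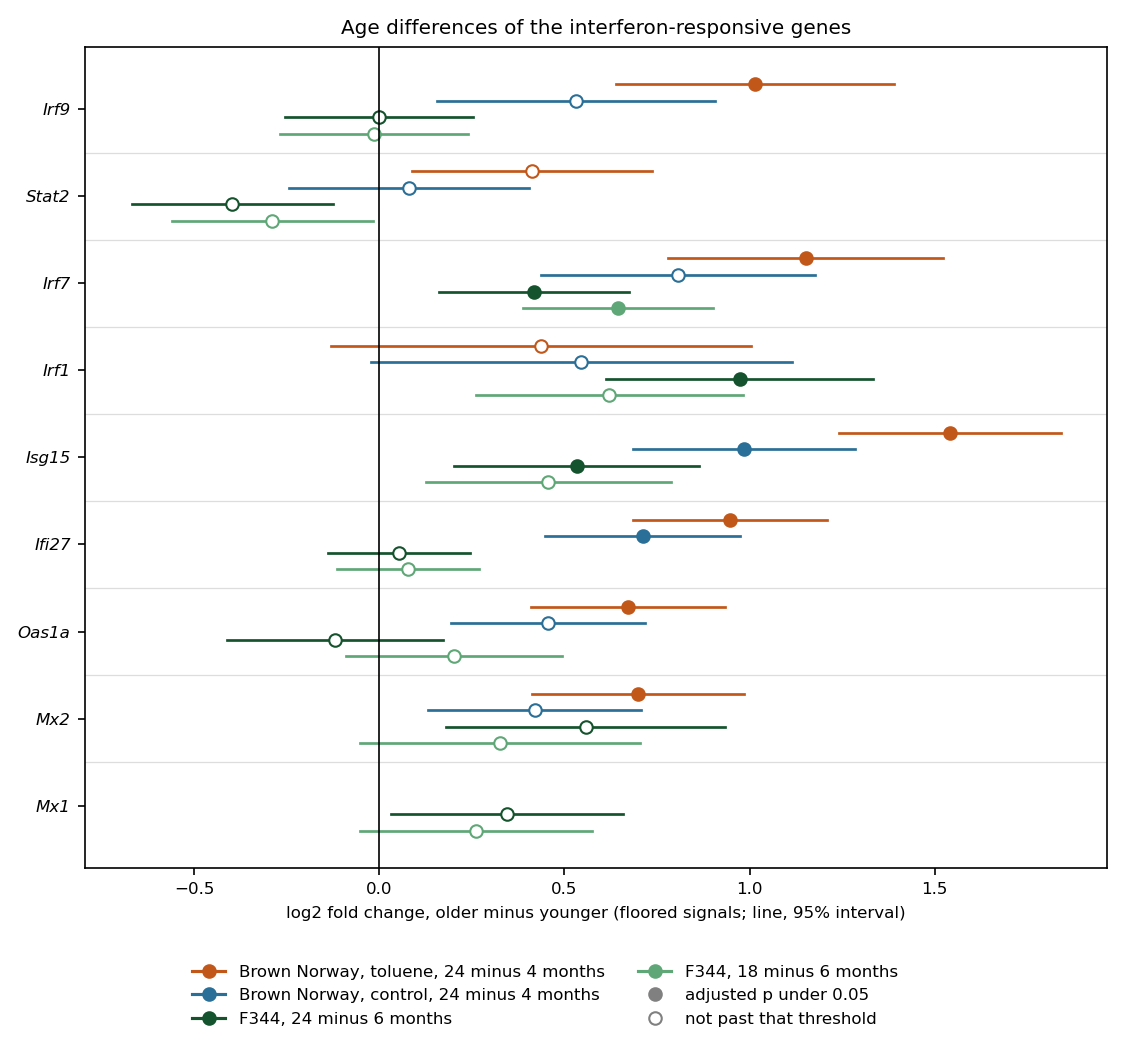
Log2 fold change (horizontal axis, older minus younger, with 95% intervals) of each member for old age in dosed and control Brown Norway rats and in F344 rats. Filled points have an adjusted p under 0.05: 6 members in dosed and 2 in control Brown Norway rats, and 3 members in F344 rats of 24 and 1 of 18 months. Mx1 has no Brown Norway value.

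The control rats of 12 months were compared with both neighbours. Between 12 and 4 months 0 of 8 members passed, as did 0% of all genes, with 1 member at an unadjusted p under 0.05 by limma, as had 3.90% of all genes. That member was Ifi27, with 2398, 2501 and 2909 at 12 months, against 1538, 1689 and 2083 at 4 months (0.56, adjusted p = 0.57), and its groups did not overlap, against 4.44% of all genes wholly above at 12 months. Isg15 had 49.8, 59.2 and 62.2 at 12 months, within reach of the young controls (0.15, 95% interval -0.15 to 0.45). Between 24 and 12 months 0 of 8 passed, against 0.0233% of all genes, with 4 at an unadjusted p under 0.05 by limma, as had 14.5% of all genes. Isg15 differed by 0.84 (SE 0.14, adjusted p = 0.0512) and Irf7 by 0.73 (adjusted p = 0.123). These 2, with Mx2 and Irf1, were wholly above at 24 months, against 9.42% of all genes, while Ifi27 differed by 0.15. In the order of its 6 group means, Isg15 was lowest at 4 months and highest at 24 months. The arrays of neighbouring groups overlapped up to 12 months and were apart between 12 and 24 months and between the dosed and control rats of 24 months. One alternative, array quality weights, gave 1 call between 12 and 4 months, and 1 call between 24 and 12 months appeared without replicate 2 or 3 of the 24-month controls.

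No member passed the threshold between toluene and control rats at any age. At 4 months 0 of 8 passed, beside 0.0233% of all genes, at 12 months 0, beside 0.0349%, and at 24 months 0, beside 0.0582%. Averaged over ages 0 passed, beside 0.0699%. By limma, 0, 0, 3 and 0 members had an unadjusted p under 0.05 in these comparisons, and at 24 months 11.1% of all genes did. The 3 at 24 months were Ifi27 (0.37, 95% interval 0.11 to 0.64, adjusted p = 0.324), Isg15 (0.38, 95% interval 0.09 to 0.68, adjusted p = 0.334) and Stat2 (0.33, 95% interval 0.01 to 0.66, adjusted p = 0.435). Every dosed rat of 24 months was above every control of that age for these 3 genes, against 9.28% of all genes, but for Stat2 only just, with 168.3 in the lowest dosed rat and 167.6 in the highest control. Irf1 lay on the other side, at -0.43 (95% interval -0.99 to 0.14).

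At 12 months the dosed rats had 56.0, 60.6 and 67.2 for Isg15, against 49.8, 59.2 and 62.2 in controls. For Ifi27 the dosed rats had 2029.7, 2419.7 and 2434, against 2398, 2501 and 2909 in controls. Both overlapped. Irf9 was lower on every dosed array, with 87.5, 96.6 and 97.6 in dosed rats, against 100.1, 106 and 114 in controls, where 4.39% of all genes were wholly lower (-0.19, adjusted p = 0.938). The 12-month dosed rats had all 3 arrays of Mx2 and Oas1a below the floor, with 22.3 to 25.3 and 18.0 to 31.5. Controls of that age had 14.5 to 33.4 for Mx2 and 27.7 to 40.1 for Oas1a.

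The difference between the age changes of dosed and control rats was tested directly. It passed for 0 of 8 members, beside 0.0116% of all genes, with 1 unadjusted p under 0.05 by limma against 4.89% of all genes, that of Isg15 (0.56, 95% interval 0.13 to 0.98, adjusted p = 0.967). For Irf9 it was 0.49 (95% interval -0.05 to 1.02) and for Irf7 0.34 (95% interval -0.18 to 0.87). The counts of 6 in dosed rats and 2 in controls therefore do not show that age acted differently in them.

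**Figure D3:**
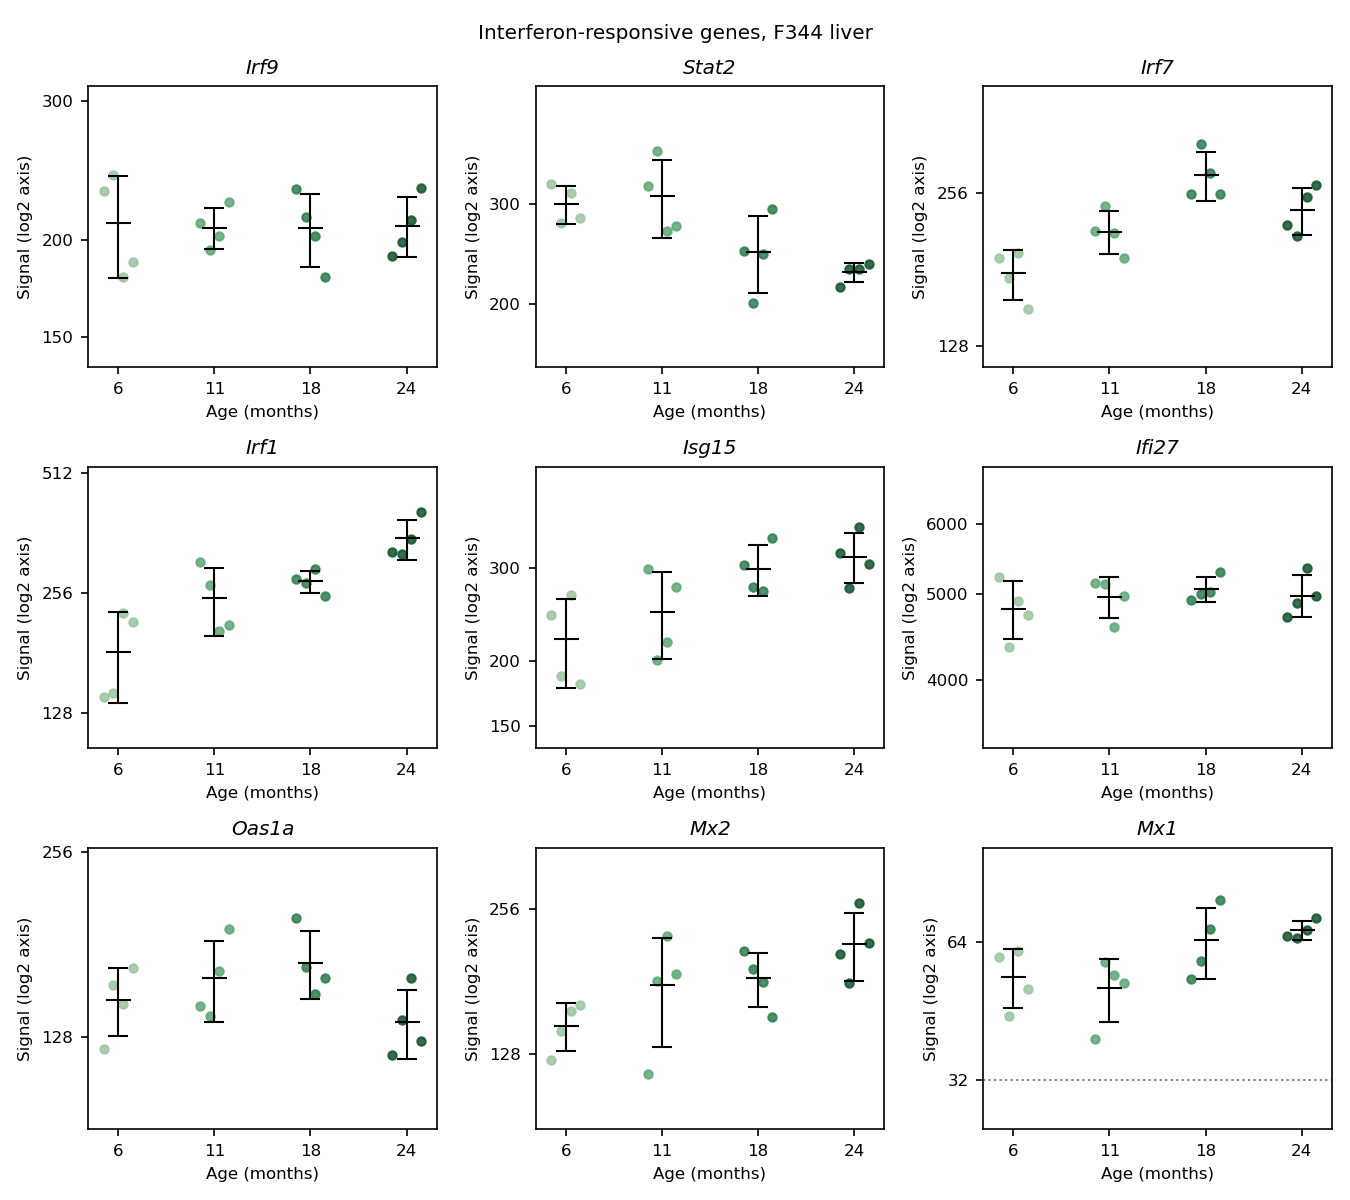
Signal of each member (log2 axis) on each F344 array by age, with 4 animals per age and black marks for the mean and SD. Irf1 was 321 to 409 at 24 months, above the 141 to 229 at 6 months, and Ifi27 overlapped at all 4 ages.

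In F344 rats, 3 of the 9 members rose between 6 and 24 months. These were Irf1, 1.96-fold higher at 24 months, Isg15, 1.45-fold, and Irf7, 1.34-fold, while Ifi27, Irf9 and Oas1a lay within 0.12 of no change on the log2 scale. In this comparison 4.44% of all 9210 tested genes were higher. Arrays of 24 months lay wholly above those of 6 months for 5 of the 9 members, against 9.14% of all genes, and wholly below for Stat2, against 6.75% of all genes.

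Among the F344 regulators, Irf1 had signals of 321, 325, 351 and 409 at 24 months, against 141, 144, 217 and 229 at 6 months. Young rats formed a low and a higher pair, and all of them were below the old rats (log2 fold change 0.97, SE 0.17, adjusted p = 0.00221). The ages between had 205, 213, 269 and 307 at 11 months and 253, 272, 278 and 295 at 18 months. Irf7 had 210.3, 222, 251.4 and 265 at 24 months, against 151, 174, 191 and 195 at 6 months (0.42, SE 0.12, adjusted p = 0.046). Its highest group was not the oldest, since rats of 18 months had 254, 255, 280.3 and 320.1 and those of 11 months 190.3, 213, 215 and 241. Stat2 had 214, 229.8, 229.9 and 235 at 24 months, against 277, 283, 314 and 325 at 6 months. It was lower on every old array but did not pass (-0.40, 95% interval -0.67 to -0.13, adjusted p = 0.0749). Its second probe set gave -0.23. Irf9 had 191, 198, 212 and 232 at 24 months, against 179, 187, 231 and 242 at 6 months, and these overlapped (-0.00, 95% interval -0.26 to 0.25, adjusted p = 0.998).

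Among the F344 effectors, Isg15 had 275, 306, 321 and 359 at 24 months, against 181, 187, 244 and 267 at 6 months (0.53, SE 0.16, adjusted p = 0.0481). The groups were apart by a small gap. At 11 months Isg15 had 201, 217, 276 and 298, and at 18 months 271, 277, 305 and 343. Mx2 had 179.5, 206, 217 and 264 at 24 months, against 125, 143, 157 and 162 at 6 months, again apart (0.56, 95% interval 0.18 to 0.93, adjusted p = 0.0725). Mx1, above the floor on all F344 arrays, had 65.4, 66.1, 67.9 and 72.4 at 24 months, against 44.3, 50.7, 59.4 and 61.1 at 6 months (0.35, 95% interval 0.03 to 0.66, adjusted p = 0.19). Neither GTPase passed. Ifi27 had 4710.1, 4886, 4975 and 5344 at 24 months, against 4359.6, 4734, 4903 and 5227 at 6 months, a difference of 0.05 (95% interval -0.14 to 0.24). Oas1a had 119, 126, 136 and 159 at 24 months, against 122, 145, 155 and 165 at 6 months (-0.12, 95% interval -0.41 to 0.17). Both overlapped throughout.

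The Irf1 change was 0.86 to 1.09 over 20 alternatives and kept its call in each, but it was under a 2-fold minimum, with which 0 members were called. The count of 3 was 1 without replicate 1, 3 or 4 of 24 months or replicate 1, 2 or 4 of 6 months, and 1 when arrays were scaled again by quantiles or by medians. Without the arrays of GAPDH ratio above 2.5, Irf7 differed by 0.54 and lost its call (adjusted p = 0.0503), while Isg15 differed by 0.77 and kept it (adjusted p = 0.0128).

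Between 18 and 6 months 1 of 9 F344 members passed, beside 0.912% of all genes. That member was Irf7, 1.56-fold higher (0.64, SE 0.12, adjusted p = 0.0173). Irf1 differed by 0.62 (adjusted p = 0.0984) and Isg15 by 0.46 (adjusted p = 0.207), and with Irf7 they are the 3 members whose groups did not overlap, against 4.53% of all genes. The Irf7 call was lost when replicate 2 or 3 of 18 months, replicate 2 of 6 months, or the 5 arrays with GAPDH ratios over 2.5 were left out. Between 11 and 6 months 0 of 9 passed, as did 0% of all genes, with 2 at an unadjusted p under 0.05 by limma, Irf1 (0.46) and Irf7 (0.28), as had 3.89% of all genes. Between 24 and 18 months 0 of 9 passed, beside 1.78% of all genes, with 1 at an unadjusted p under 0.05 by limma, Oas1a (-0.32, adjusted p = 0.347), as had 11.9% of all genes. Irf1 differed by 0.35 and was wholly above at 24 months, against 4.12% of all genes. The 3 comparisons with 6 months share those arrays.

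The age change was then compared between the strains, as F344 (24 against 6 months) minus control Brown Norway rats (24 against 4 months). Of the 8 members tested in both, 1 differed, Ifi27, against 0.201% of all genes with a smaller change in F344 rats. Its change was 0.05 in F344 and 0.71 in Brown Norway rats, a difference of -0.66 (SE 0.15, adjusted p = 0.0341). The difference for Oas1a was -0.58 (adjusted p = 0.263), for Irf9 -0.53 (adjusted p = 0.43), for Stat2 -0.48 (adjusted p = 0.473), for Isg15 -0.45 (adjusted p = 0.595) and for Irf7 -0.39 (adjusted p = 0.682). For Irf1 the difference was 0.43 (95% interval -0.22 to 1.08). For Mx2 it was 0.14 (95% interval -0.34 to 0.62), which is an upper bound because the young controls lay below the floor, and with a floor of 8 it was -0.28. Young ages, housing, GAPDH ratios and array medians also differed between the strains and cannot be told apart from strain. Without the arrays of GAPDH ratio above 2.5, no member passed. The Ifi27 call was lost when any one of 11 of the 14 arrays was left out, the exceptions being replicate 2 of the young controls (without which 2 members differed), replicate 3 of the 24-month F344 rats and replicate 2 of the 6-month F344 rats. Over the 14 its difference ranged from -0.78 to -0.56.

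The rest of the pathway was read from 121 other genes, of which 70 were tested in Brown Norway and 76 in F344 rats. None of the tested genes fell in any age comparison. The signalling genes that act before the members showed no call in either strain. Of 5 receptor chains, 0 passed in Brown Norway rats (dosed and controls averaged) or in F344 rats of 24 months. Among them, Ifnar1, a chain of the type I receptor, differed by 0.10 in Brown Norway and -0.02 in F344 rats. Of the kinases, Jak1 differed by 0.10 in Brown Norway and 0.16 in F344 rats, and Tyk2 by -0.03 and 0.01. Interferon genes themselves were not analysed here.

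In Brown Norway rats, dosed and controls averaged, 6 of 70 genes rose, beside 0.524% of all genes, with a median of 0.19 over the 70. In dosed rats 3 rose, beside 0.221% of all genes, and in controls 1, beside 0.175%. Lgals3bp, a secreted glycoprotein that binds galectin, had 94.7 to 144 in dosed rats of 24 months, against 42.2 to 49.9 in those of 4 months (1.29, adjusted p = 0.0142). In controls it had 126 to 220.2 at 24 months, against 48.3 to 63.6 at 4 months (1.499, adjusted p = 0.00791). Psmb8, an immunoproteasome subunit, had 557 to 597 in dosed rats of 24 months, against 217 to 246 in those of 4 months (1.33, adjusted p = 0.0185). In controls it had 393 to 796 at 24 months, against 225 to 286 at 4 months (1.06, adjusted p = 0.0639). Usp18, the protease that removes ISG15 from proteins and damps receptor signalling, was at least 1.75-fold higher in dosed rats (48.4 to 74.5 at 24 months, against 20.1 to 30.7 at 4 months, adjusted p = 0.0228). Ube2l6, the conjugating enzyme for ISG15, rose by 0.71 in the average of both (adjusted p = 0.0272). The RNA-binding effector Ifit2 (0.76) and the proteasome activator subunit Psme1 (0.36) rose in that average too.

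In F344 rats of 24 against 6 months, 13 of 76 genes rose, beside 4.44% of all genes, with a median of 0.21 over the 76. They lay in 4 groups. Of 30 antiviral effectors 7 rose, among them the membrane proteins Ifitm3 (2262 to 2697 at 24 months, against 1162 to 1581 at 6 months, log2 fold change 0.94) and Ifitm1 (0.79), with Ifit2 (0.89), Oasl (0.74), Lgals3bp (0.71) and Ifi44l (0.48). Of 4 genes of ISG15 conjugation 1 rose, the ligase Herc6 (66.5 to 78.9 at 24 months, against 34.8 to 48.2 at 6 months, 0.82), which the effector list also holds. Of 10 interferon gamma targets and GTPases 3 rose, Gbp2 (1.16), Igtp (0.66) and Ifi30 (0.48). Of 13 genes of antigen presentation by MHC class I and of the immunoproteasome 3 rose, Psmb10 (0.78), the peptide transporter Tap1 (0.47) and Psme2 (0.46). At 18 months 5 of 76 were higher than at 6 months, beside 0.912% of all genes, Ifitm3 (0.82), Lgals3bp (0.95), Oasl (0.86), Psmb10 (0.65) and Tap1 (0.51). At 11 months 0 were, and under toluene, averaged over ages, 0 of 70 changed. The F344 count was 8 without replicate 2 of 6 months. The 18-month count was 2 without replicate 2 or 3 of 18 months or replicate 1 of 6 months, 10 without replicate 4 of 18 months, 1 without replicate 2 of 6 months and 3 without replicate 3 or 4 of 6 months. Leaving out replicate 3 of 4 months took the Brown Norway control count to 0, and leaving out replicate 2 of 24 months took it to 5.

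**Figure D4:**
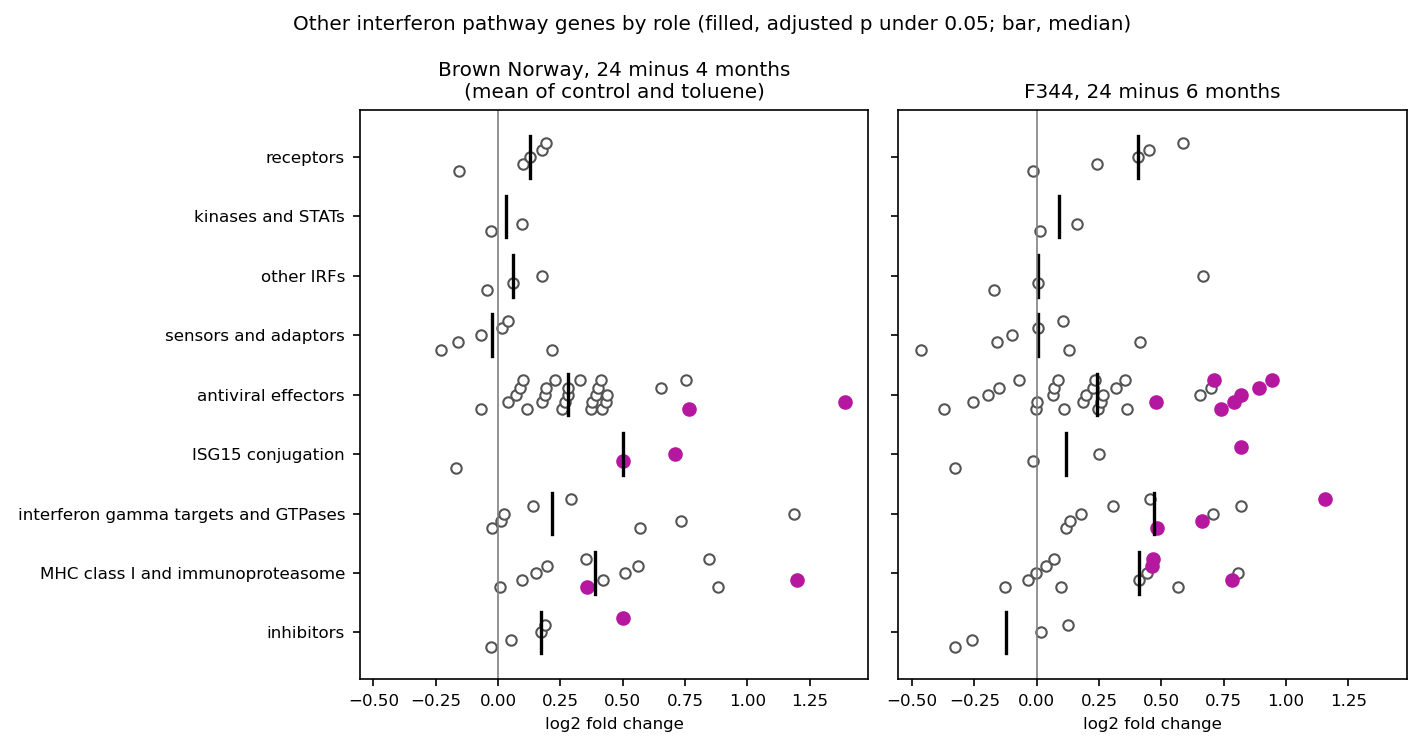
Log2 fold change (horizontal axis, older minus younger) of other interferon pathway genes by role, for Brown Norway rats (24 against 4 months, dosed and controls averaged) and F344 rats (24 against 6 months). Filled points have an adjusted p under 0.05 and bars are medians. Of the genes tested, 6 of 70 and 13 of 76 rose and 0 fell, and a gene in 2 roles is drawn in both.

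Markers of other liver cells moved with some of these changes. The summed signal of 14 markers of macrophages and Kupffer cells was 5761 to 8254 in dosed Brown Norway rats of 24 months, against 5820 to 7085 in those of 4 months. Of the 14, 0 rose by limma, 12 were higher by value (median log2 fold change 0.15), and the sums overlapped. In controls the sum was 8164 to 15331 at 24 months, against 6100 to 6652 at 4 months, with 2 of 14 higher, the complement gene C1qb and the scavenger receptor Cd163 (median 1.19). The sum of 15331 belongs to replicate 1 of the old controls, without which 1 member was called. Leaving out each of the 6 control arrays in turn gave 0 to 3 calls. In F344 rats the marker sum was 9137 to 11843 at 24 months and 10062 to 11909.9 at 18 months, against 7039 to 8223 at 6 months, and 5 of 14 markers were higher at each of the later ages. Their part in the member results was not tested. T and natural killer cell markers summed to 471 to 1651 over 10 markers in F344 rats of 24 months, against 264 to 355 at 6 months, and 3 of 6 tested rose. In Brown Norway rats 1 of those markers was bright enough to test. Neutrophil markers summed to 197 to 379 over 3 markers in F344 rats of 24 months, against 66.0 to 97.5 at 6 months. Markers of plasmacytoid dendritic cells, a main source of type I interferon, gave 0 calls among 3 tested in Brown Norway and 4 in F344 rats. Their sum over 5 markers was 1084 to 1365 in controls of 24 months, against 686 to 874 in those of 4 months, wholly apart, with 3 of 3 tested higher by value (median log2 fold change 0.45). In dosed rats the sum was 933 to 1116 at 24 months, against 771 to 1023 at 4 months. In F344 rats it was 937 to 1292 at 24 months, against 769 to 1257 at 6 months, with overlap. This marker list shares Irf8, Tlr7 and Bst2 with the pathway lists, so its sum is not independent of interferon pathway genes. Also apart in controls were 4 B and plasma cell markers, with sums of 321 to 445 at 24 months, against 132 to 163 at 4 months, and 5 endothelial markers, with 1634 to 1881, against 1138 to 1560.04. Taken singly, 7.14% of all tested genes were wholly above in that comparison. Wholly above in dosed rats of 24 against 4 months were 2 cholangiocyte markers, with sums of 230 to 254, against 172 to 220. So were 7 T and natural killer cell markers (190.308 to 235, against 129 to 190.297), though only just. The same held for 4 B and plasma cell markers (168.268 to 252, against 137 to 168.075). None of their tested markers passed, and singly 8.54% of all tested genes were wholly above there. Stellate cell markers summed to 730 to 1088 over 6 markers in dosed rats of 24 months, against 1019 to 4875 in those of 4 months, with 1 of 5 tested higher by value (median -1.09). The sum of 4875 is that of replicate 1, without which 2 members were called. The count was 2 to 3 whichever of the 6 arrays was left out. The part of these cells in the member results was not tested.

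**Figure D5:**
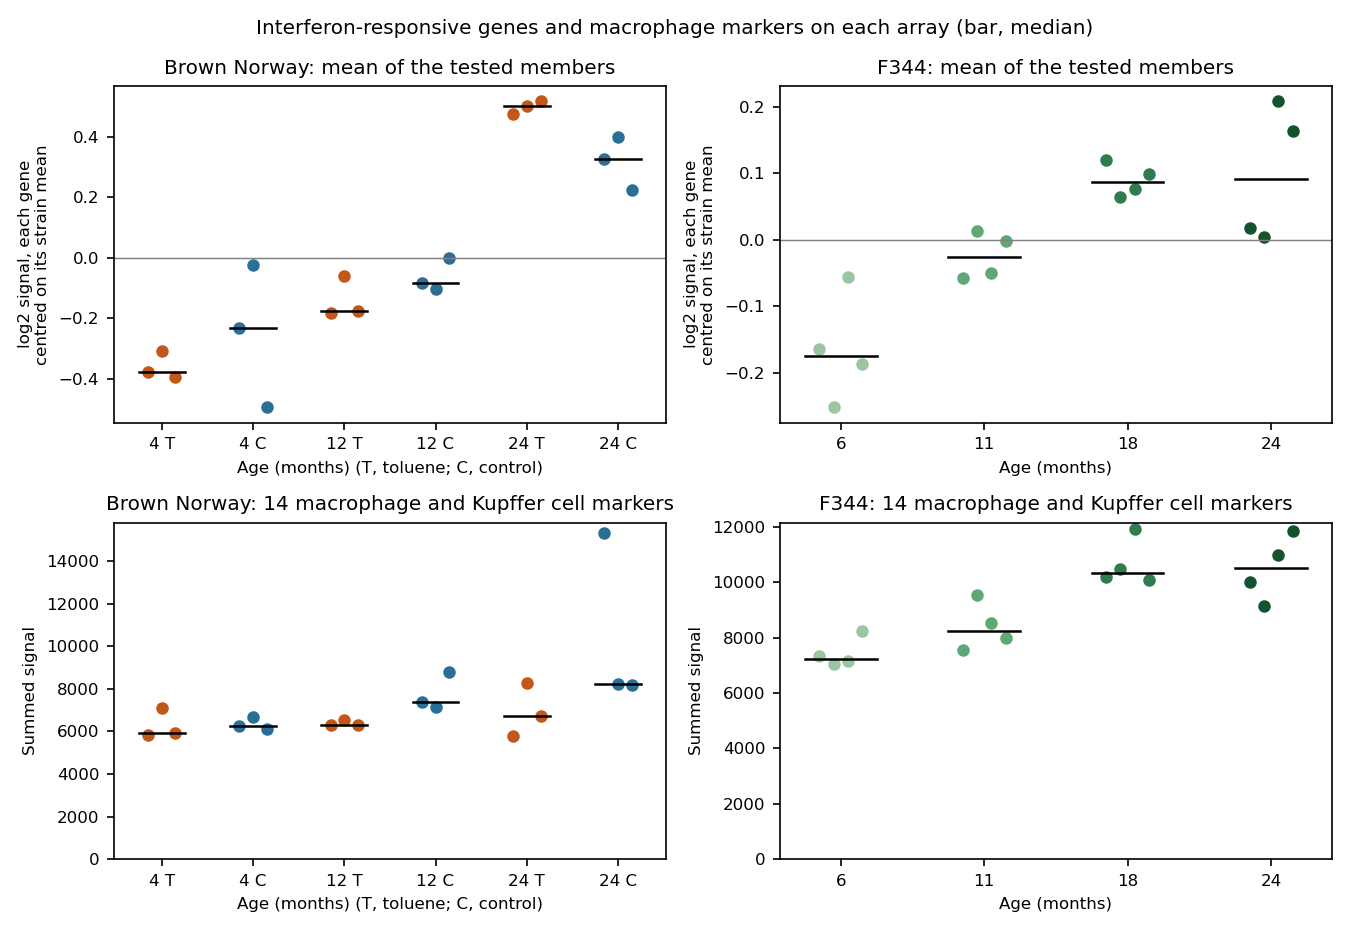
Upper panels show the mean of the tested members on each array (log2 signal, each gene centred on its strain mean) and lower panels the summed signal of 14 macrophage and Kupffer cell markers, by age, with toluene (T) left of control (C) in Brown Norway rats. Bars are medians. Dosed Brown Norway rats of 24 months had the highest member means, 0.48 to 0.52, with marker sums of 5761 to 8254, which overlapped those of dosed rats of 4 months.

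Over 18 arrays the 28 pairs of tested members had correlations of 0.36 to 0.93 with a median of 0.70, and Isg15 and Irf7 were the closest pair. With group means removed the median was 0.20 and the range -0.37 to 0.68. In F344 rats the 36 pairs had a median of 0.04 over 16 arrays, and of 0.09 with group means removed. Stat2 and Mx2 were the most opposed there, at -0.62. Arrays share age groups and, in part, RNA quality, so these correlations are descriptions.

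By the correlation with the members' mean across arrays, the most similar other gene in Brown Norway rats was Psmb8 (0.87 over 18 arrays), the immunoproteasome subunit named above. Glipr1 (0.84), Unc5cl (0.84), Lgals3bp (0.84), Tpd52l1 (0.84), the apolipoprotein Apoa4 (0.83), Dglucy (0.82) and Vxn (0.81) followed among 8578 candidates. In F344 rats the list over 16 arrays was Fxyd2 (0.90), the calcium-dependent kinase Camk2d (0.90), Gpnmb (0.88), the phospholipase Pla2g2d (0.88), Crip1 (0.88), the flavin monooxygenase Fmo5 (0.87), Tap1 (0.87) and the chemokine Cxcl16 (0.87), among 9201 candidates. Lgals3bp and Psmb8 in Brown Norway and Tap1 in F344 rats are the ones also held by the pathway lists.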

How the data were processed

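Liver RNA, prepared with TriReagent and a column cleanup per the labels, was measured on rat Affymetrix arrays. The authors deposited one processed, linear intensity for each probe set and array, and the submitters' processing notes name MAS5 and RMA with no version, role or order. Batches are not given in the sources used here. Members and lists were chosen with earlier results of these data known. Of 12 probe sets of the 9 members, the one with the highest mean signal in the strain was used for each gene. Signals were floored at 32, and testing required a signal above it on 3 arrays in Brown Norway rats or 4 in F344 rats. limma 3.58.1 in R 4.3.3 fitted group means within each strain over all its groups, with moderated variances. P-values were adjusted by Benjamini and Hochberg over all genes tested (8586 in Brown Norway, 9210 in F344), and a gene was called at an adjusted p under 0.05. The strains' age effects were compared for 7966 genes with the same probe set, by a contrast in a joint limma fit over the arrays of both strains. That fit shares a moderated variance between the strains for each gene. It therefore assumes the same spread between animals in both, although their GAPDH ratios differed. Folds against a group wholly below the floor are lower bounds. Intervals are 95% intervals of the fit. Named pathway genes are those with the smallest p in each list in control Brown Norway and in F344 old age, with every one called at 18 months. The script was tested on simulated data. Alternatives were other probe sets or their mean, scaling, floors, filters, variance models, array weights, the compared groups alone, a 2-fold minimum, RNA quality, and each array left out in turn. Promoters are RefSeq sequences.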

Additional observations from a re-analysis of the deposited data

Results flagged for a closer look

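The change of Ifi27 in old age differed between the strains in the main fit, but the call was fragile. It was kept in 3 of 14 runs with an array left out, and lost without the arrays of GAPDH ratio above 2.5. Young ages, housing, GAPDH ratios and array medians cannot be told apart from strain. The change was 0.05 in F344 rats and 0.71 in control Brown Norway rats, and the test of the difference gave -0.66 (limma, adjusted p = 0.0341). The signals overlapped at all ages in F344 rats, and the Brown Norway groups of 24 and 4 months did not overlap. No single animal stood apart by Dixon's test in any of the 36 sets of 4 F344 animals (9 genes at 4 ages), where chance alone gives about 1 in 20.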

How the results depend on the processing

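No paired analysis was possible because replicate numbers follow accession order and pair no animals. Beside the main counts in the report, members called at 24 against 4 months in controls numbered 1 with a floor of 8 or one 4 times the main floor (the high floor), and 0 with the compared groups alone or a 2-fold minimum. In dosed rats they numbered 1 with the high floor, 0 with the compared groups alone, and 3 with the GAPDH ratio as a covariate or a 2-fold minimum. In the average of both they numbered 1 with the high floor or a 2-fold minimum. With array weights there was 1 between 12 and 4 months. Between 24 and 12 months there was 1 with the mean of probe sets, array weights, or without replicate 3 of the 12-month dosed rats. In F344 rats of 24 against 6 months there was 1 with quantile scaling, median scaling or a floor of 8, 5 with array weights (4 higher and 1 lower) and 0 with a 2-fold minimum. At 18 against 6 months there were 2 with array weights and 0 with the compared groups alone, a 2-fold minimum or after dropping arrays with GAPDH ratios over 2.5. The strain difference gave 0 with a floor of 8, a 2-fold minimum or without those arrays. It was not run with the compared groups alone.

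Pathway counts in Brown Norway controls were 0 with the high floor or the compared groups alone, and 2 with the variance trend, array weights or without replicate 3 of the 12-month dosed rats. In F344 rats of 24 months the count was 1 with a 2-fold minimum, and at 18 months 3 with the high floor, 17 with array weights and 0 with a 2-fold minimum.

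With each array left out in turn, member counts were 0 to 3 in controls, 2 to 3 in dosed rats, 6 in their average, 0 to 1 between 24 and 12 months, 1 to 2 and 0 to 1 in F344 rats of 24 and 18 months, and 0 to 2 for the strain difference. Pathway counts were 0 to 5 in Brown Norway controls, 8 to 14 in F344 rats of 24 and 1 to 10 of 18 months.

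Signs turned in uncalled genes near no change. With each array left out in turn, Stat2 in controls was -0.054 to 0.15, Irf9 in F344 rats was -0.073 to 0.070 at 24 and -0.086 to 0.057 at 18 months, and Mx2 in the strain difference was -0.030 to 0.29. Irf9 at 18 months was 0.034 with the mean of probe sets, 0.025 with array weights, 0.082 with its other probe set and 0.019 after dropping the arrays of high GAPDH ratio. Mx2 in the strain difference was -0.14 with the mean of probe sets and -0.28 with a floor of 8. Except where fewer arrays or genes entered the fit, the cause was not tested. Mx1, Mx2 and Oas1a lay near the floor in Brown Norway rats. Floored arrays share the same value, so the SE of Mx2 and Oas1a leaves out the spread between animals below the floor.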

Other observations

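The genes most similar to Irf1 were not those most similar to Isg15. In Brown Norway rats its signals over 18 arrays were most like those of Hamp, the iron hormone hepcidin (r = 0.89), Flot1 (0.87) and Hmox1, heme oxygenase 1 (0.87). Those most like Isg15 were Psmb8 (0.86), Glipr1 (0.86) and Tpd52l1 (0.86). In F344 rats, over 16 arrays, Irf1 was most like Erg28 (0.92), the GTPase Igtp (0.91) and the survival factor Bcl2a1 (0.88), and Isg15 was most like Znfx1 (0.83), Ifi27l2b (0.82) and Zc3h15 (0.80). These are descriptions over arrays that share age groups.

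Other probe sets gave part of the picture. The second Mx2 probe set had signals of 5.64 to 17.8 in F344 rats, below the floor on all 16 arrays, while the one used had 116 to 264. Jchain, a plasma cell marker, was higher in control Brown Norway rats of 24 months, with 258 to 366, against 94.8 to 127 at 4 months (log2 fold change 1.43, limma adjusted p = 0.0146).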
